A study of Mus musculus with 12 samples.

Results

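The genes of the proteasome were followed through livers of mice given the NIAAA diet, a model of alcoholic liver injury, or control feeding. The group held 45 genes of the 55401 in the gene table, chosen as protein-coding entries whose symbol is Psm, 1 of the letters a to e, and a number. By their textbook roles, 14 encode constitutive subunits of the 20S core, 17 encode the 19S cap, 3 encode chaperones that assemble the cap, 3 are the immunoproteasome subunits Psmb8, Psmb9 and Psmb10, 3 encode PA28 activators and 1, Psme4, encodes the activator PA200. Psma8 and Psmb11 are core subunits known from testis and thymus. The remaining 2 matched by name only: Psmc3ip encodes a protein of meiotic recombination, and Psme2b is a copy of Psme2 on chromosome 11 with 1 transcript of 837 bases.

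The proteasome is the barrel-shaped protease that degrades proteins tagged with ubiquitin. Its 20S core is made of stacked rings of alpha and beta subunits, of which Psmb5, Psmb6 and Psmb7 carry the active sites, and the 19S cap recognises, unfolds and feeds in the substrate. Interferon is known to bring in Psmb8, Psmb9 and Psmb10 in place of Psmb5, Psmb6 and Psmb7, which forms the immunoproteasome, and to raise Psme1 and Psme2, whose products form the PA28 ring that opens the core; the constitutive genes are known to be raised together by the transcription factor encoded by Nfe2l1 when proteasome activity is short.

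Bulk RNA sequencing of liver compared 4 groups. LKO-ALD mice (LPCAT3flox/flox-cre, NIAAA diet) had 3 libraries, FLOX-ALD mice (LPCAT3flox/flox, NIAAA diet) had 3, LKO-NC mice (LPCAT3flox/flox-cre, control) had 2, with a replicate 3 that was not analysed here, and FLOX-NC mice (LPCAT3flox/flox, control) had 3. All are labelled male C57BL/6 mice of 8 to 10 weeks and all carry the floxed Lpcat3 allele; the promoter driving cre is not in the labels, and the title calls the target hepatic. The labels do not say whether replicates were separate animals, so a p-value here reflects how far these libraries spread, and that spread may be technical.

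The libraries held 39063371 to 73557868 counts. Lpcat3, the targeted gene, was at 9.80 to 15.4 CPM (counts scaled to library size by trimmed mean of M-values) in LKO-ALD libraries, against 30.5 to 43.2 CPM in FLOX-ALD, and at 29.2 to 37.2 CPM in LKO-NC, against 87.1 to 103 CPM in FLOX-NC. The 8 hepatocyte markers summed to 54997 to 91064 CPM in LKO-ALD and to 65773 to 116017 CPM in FLOX-ALD libraries. In LKO-NC they summed to 77534 to 120936 CPM, and in FLOX-NC to 113219 to 117620 CPM. The share of mitochondrial counts was 26.4% and 22.3% in replicates 3 and 2 of FLOX-ALD and 25.3% in the first LKO-NC library, against 12.1% to 15.4% elsewhere. FLOX-ALD replicate 1, labelled male, had Xist at 772 CPM and no count of the 4 Y-linked genes read, unlike the other libraries.

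Of the 45 genes, 44 passed the filter on low counts, and Psmb11 did not. Levels per length, in the authors' length- and depth-scaled fragment values (FPKM), ran over the 11 libraries from a mean of 127 FPKM for Psma4, an alpha ring subunit, to 0.00272 FPKM for Psmb11. Constitutive beta ring genes had a median of 56.7 FPKM over genes, alpha ring genes 49.5 FPKM, the 19S ATPases 44.7 FPKM and the 19S lid genes 24.1 FPKM. The immunoproteasome genes were lower, at 14.4 FPKM for Psmb10, 13.6 FPKM for Psmb8 and 6.19 FPKM for Psmb9. The PA28 genes Psme1 and Psme2 stood at 65.7 and 50.6 FPKM, in the range of the core, while Psme3, the nuclear PA28 subunit, stood at 10.2 FPKM. The cap chaperones Psmd5 and Psmd10 were the lowest of the widely expressed genes, at 3.39 and 3.62 FPKM. Of the 45 genes, 19 overlap a gene on the other strand; how the counting treated strand is not given in the sources used here, and reads of such pairs may not be told apart.

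**Figure D1:**
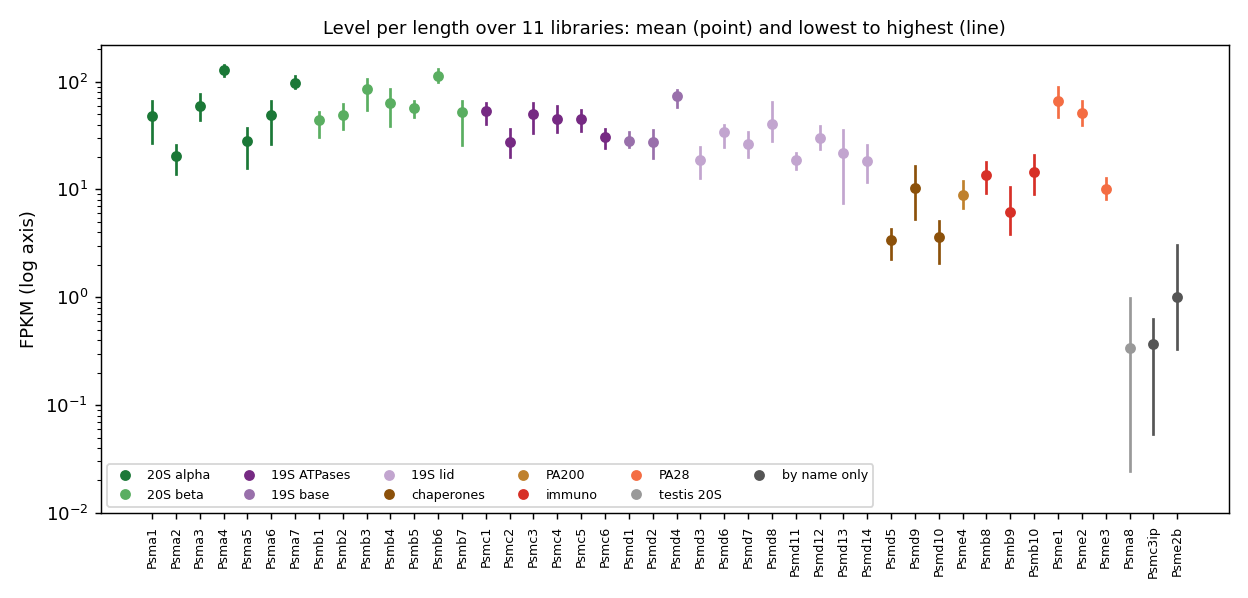
Level per length of the 44 tested proteasome genes (FPKM, log axis), coloured by subcomplex, with the mean over 11 libraries as a point and the lowest to highest library as a line. Core and cap genes lie between 18.4 and 127 FPKM, the 3 immunoproteasome genes between 6.19 and 14.4 FPKM, and Psma8, Psmc3ip and Psme2b at or below 1.02 FPKM.

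In FPKM, Psmb5, Psmb6 and Psmb7 were each above the inducible gene that takes its place in every library. Psmb8 was, as a percentage of the FPKM of Psmb5, the subunit whose place it takes, 14.7%, 25.3% and 18.5% in LKO-ALD, 26.8%, 17.1% and 20.6% in FLOX-ALD, 37.6% and 25.3% in LKO-NC, and 26.9%, 28.0% and 27.1% in FLOX-NC. Psmb9 over Psmb6 lay between 3.22% and 9.08%, with means of 5.34% ± 2.50 in LKO-ALD, 3.81% ± 0.934 in FLOX-ALD and 6.21% ± 0.875 in FLOX-NC (SD, n = 3 each), and with 9.08% and 5.18% in LKO-NC. Psmb10 over Psmb7 was 16.8%, 20.9% and 16.7% in LKO-ALD, 27.0%, 28.9% and 41.6% in FLOX-ALD, 80.04% and 24.4% in LKO-NC, and 28.4%, 23.8% and 28.1% in FLOX-NC. All 3 LKO-ALD libraries lay below all 8 others for Psmb10 over Psmb7, and the highest value of each ratio was that of LKO-NC replicate 1.

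Promoter sequences are shown for 2 constitutive catalytic genes and for 2 genes of the inducible set, to set the letters before each start beside the values that follow. They are RefSeq sequences of build GRCm38.p6, read toward the start, without bases inside annotated exons; capitals mark the antioxidant response element core TGACNNNGC on either strand, which shares its first letters with AP-1 and cAMP elements.
Psmb5 (chr14:54618023-54618245, - strand): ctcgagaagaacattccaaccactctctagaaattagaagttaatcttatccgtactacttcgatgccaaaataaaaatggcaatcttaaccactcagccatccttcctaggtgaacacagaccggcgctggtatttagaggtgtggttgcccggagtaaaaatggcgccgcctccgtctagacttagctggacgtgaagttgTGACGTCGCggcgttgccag
Psmb6 (chr11:70525107-70525356, + strand): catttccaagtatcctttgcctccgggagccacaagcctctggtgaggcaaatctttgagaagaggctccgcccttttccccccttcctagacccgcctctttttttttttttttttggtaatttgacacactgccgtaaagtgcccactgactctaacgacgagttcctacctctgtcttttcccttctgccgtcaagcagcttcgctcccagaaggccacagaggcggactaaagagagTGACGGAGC
Psmb10 (chr8:105938445-105938642, - strand): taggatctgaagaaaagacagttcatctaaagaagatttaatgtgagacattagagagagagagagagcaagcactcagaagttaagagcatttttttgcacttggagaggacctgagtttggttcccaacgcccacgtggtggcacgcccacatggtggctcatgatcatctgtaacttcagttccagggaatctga
Psme2 (chr14:55591114-55591351, - strand): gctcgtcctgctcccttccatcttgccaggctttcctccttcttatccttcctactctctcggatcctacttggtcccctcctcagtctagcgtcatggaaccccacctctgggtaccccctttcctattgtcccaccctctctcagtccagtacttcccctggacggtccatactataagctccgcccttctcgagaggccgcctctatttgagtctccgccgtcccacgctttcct
In Psmb5 the 27 bases next to the RefSeq start were left out as exon bases and are not shown. The element core begins 47 bases before that start in Psmb5 and 9 bases before the start in Psmb6. In the 250 bases before the start, it was found in 5 of the 41 promoters (12.2%) listed for 38 of the genes (Psmb5, Psmb6, Psmc6, Psmd9 and Psmd12), against 10.2% of all 32851 promoters. The interferon regulatory factor core GAAANNGAAA was found in 3 (7.32%; Psmb3, Psmd4 and Psmd9), against 2.98% of all, and the gamma-activated site TTCNNNGAA in 1, that of Psmb8 (2.44%), against 7.02% of all. A match is a string of letters and was not tested as a binding site.

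In Cre mice on the NIAAA diet, the inducible proteasome genes were lower and most cap genes somewhat higher than on control feeding (LKO-ALD over LKO-NC). Most core genes were also somewhat higher, but not without LKO-NC replicate 1. No single proteasome gene passed edgeR's adjusted threshold. Psmb8, Psmb9, Psmb10, Psme1 and Psme2 all had negative log2 fold changes, with a median of -0.67, while 16 of 17 cap genes and 10 of 14 constitutive core genes had positive ones, with medians of 0.36 and 0.31; the median of all 19014 genes tested was -0.0013. With edgeR's quasi-likelihood test and Benjamini-Hochberg adjustment over all genes, 0 of 44 proteasome genes were called at 0.05, against 0.957% of all genes. The lowest adjusted p among them was 0.0534, for Psme2b. At an unadjusted p under 0.05 there were 14 of 44 (31.8%), 10 higher and 4 lower, against 19.5% of all genes. DESeq2 called 6 of 44 (13.6%), against 10.1% of the 15281 genes to which it gave an adjusted p. Later DESeq2 shares are also over the genes with an adjusted p. In 21 of 44 genes (47.7%) every LKO-ALD library lay above both LKO-NC libraries, against 20.1% of all genes, and in 8 (18.2%) every one lay below both, against 19.6%.

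**Figure D2:**
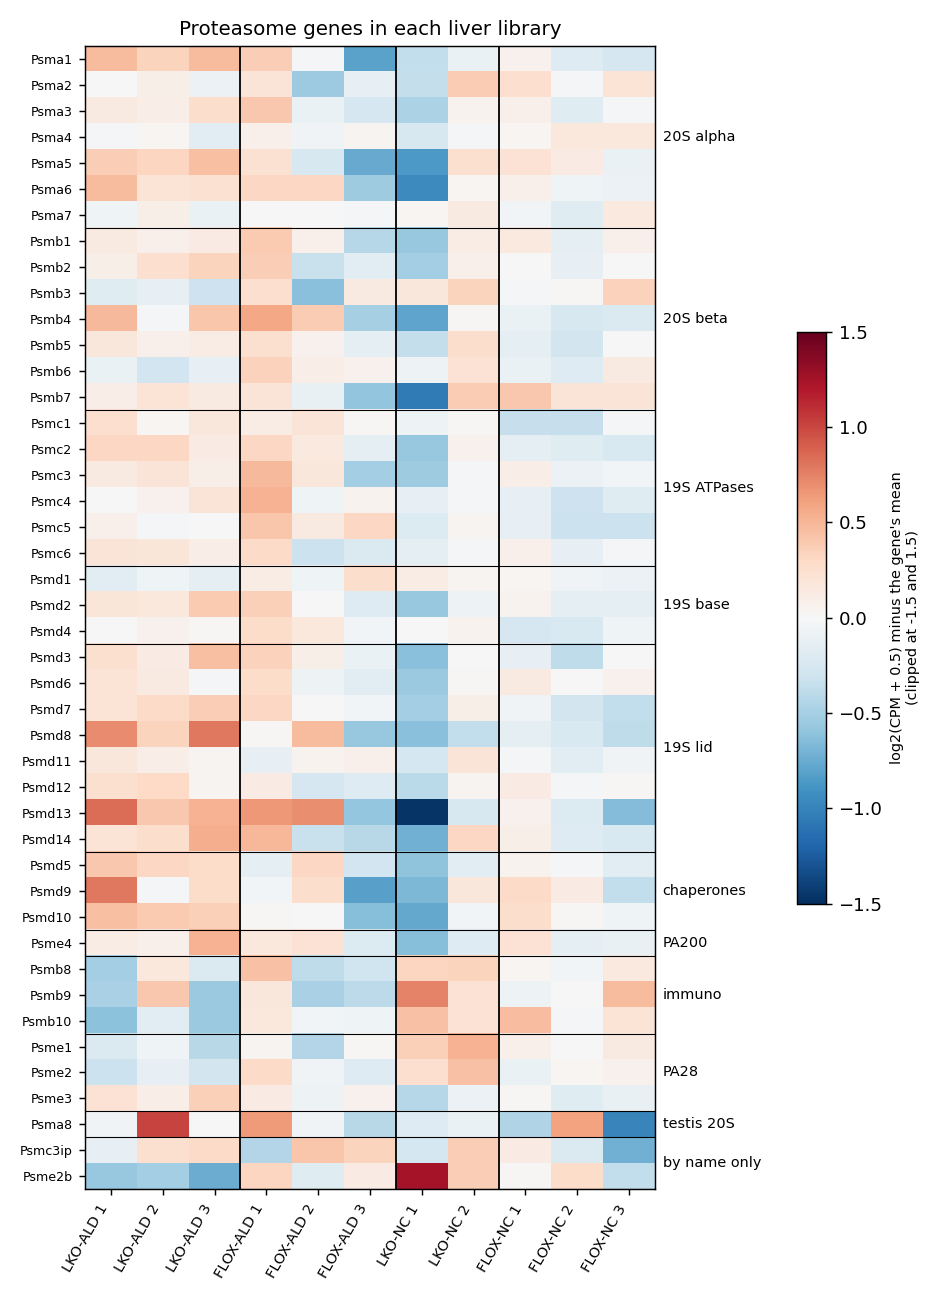
Each of the 44 tested genes (rows, by subcomplex) in each of the 11 libraries (columns, by group and replicate), as log2(CPM + 0.5) minus the gene's mean over the libraries. LKO-NC replicate 1 is the lowest library in 24 of the 44 rows, while in it the immunoproteasome rows are above their mean, and the rows of Psmb10, Psme1 and Psme2 are below their mean in all 3 LKO-ALD libraries.

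The inducible set was read gene by gene. Psmb10 had 13.7, 18.7 and 14.3 CPM in LKO-ALD, against 28.8 and 24.6 CPM in LKO-NC. The groups did not overlap, and the log2 fold change was -0.78 ± 0.22 (SE; edgeR adjusted p = 0.0899; DESeq2 adjusted p = 0.0198). Psme1 had 72.0, 80.1 and 62.6 CPM in LKO-ALD, against 108 and 120 CPM in LKO-NC, again without overlap, with a log2 fold change of -0.67 ± 0.21 (edgeR adjusted p = 0.121; DESeq2 adjusted p = 0.0257). Psme2, its partner in the PA28 ring, had 42.0, 48.2 and 43.6 CPM in LKO-ALD, against 62.6 and 71.4 CPM in LKO-NC, with a log2 fold change of -0.59 ± 0.20 (edgeR adjusted p = 0.136; DESeq2 adjusted p = 0.0412). So 3 of the 5 fell by DESeq2 and 0 by edgeR. Psmb8, Psmb9, Psmb10 and Psme1 overlap Gm20496, Tap1, Gm16156 and Emc9 on the other strand, and Psme2 overlaps none there. Reads of such pairs may not be told apart.

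Psmb8 and Psmb9, neighbours on chromosome 17, were more spread. Psmb8 had 17.8, 28.6 and 22.0 CPM in LKO-ALD, against 32.2 and 32.5 CPM in LKO-NC, which did not overlap, with a log2 fold change of -0.51 ± 0.27 (edgeR adjusted p = 0.324). Psmb9 had 7.42, 14.1 and 7.03 CPM in LKO-ALD, against 18.02 and 12.4 CPM in LKO-NC, where LKO-ALD replicate 2 lay between the 2 controls (log2 fold change -0.67 ± 0.35; edgeR adjusted p = 0.306). Without LKO-NC replicate 1 the median of the 5 was -0.66, and none of the 5 had a positive fold change under any alternative run. Psme2b, the copy of Psme2, was low, at 0.450, 0.485 and 0.340 CPM in LKO-ALD, against 2.84 and 1.31 CPM in LKO-NC (log2 fold change -2.28 ± 0.50; DESeq2 adjusted p = 0.00139), and reads shared with Psme2 could be split between them.

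Markers of several immune cell types were lower along with the inducible genes. The 16 interferon response genes summed to 255 to 327 CPM in LKO-ALD, against 391 to 529 CPM in LKO-NC; all 16 had negative fold changes and 3, the antiviral genes Mx1, Oas2 and Ifit3, fell by edgeR, by 3.21, 2.33 and 1.86 on the log2 scale. The 10 Kupffer cell and macrophage markers summed to 60.6 to 150 CPM, against 234 to 433 CPM, with 10 of 10 lower and 2 called, Cd68 and Clec4f. The 9 dendritic cell markers summed to 57.5 to 111 CPM, against 131 to 234 CPM, with 9 of 9 lower and 2 called, and the 8 B and plasma cell markers to 3.23 to 4.27 CPM, against 18.01 to 20.8 CPM, with 8 of 8 lower and 3 called. The 6 monocyte markers summed to 13.8 to 25.3 CPM, against 32.2 to 57.9 CPM, with 0 called. Neutrophil markers did not follow: they summed to 17.3 to 28.4 CPM in LKO-ALD, inside the 5.46 to 53.8 CPM of LKO-NC, and 2 of the 5 tested had positive and 3 negative fold changes. LKO-NC replicate 1 had the higher LKO-NC sum for each of these lists, and their calls are given with both LKO-NC libraries only. No macrophage, dendritic cell or interferon gene of these lists was at 0 in any library. The B and plasma cell list, near the floor, had 1 gene at 0 in each of LKO-ALD replicates 2 and 3 and FLOX-ALD replicate 3. The part of these cells in the proteasome result was not tested, and in bulk liver fewer cells of a type and less RNA per cell cannot be told apart.

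**Figure D3:**
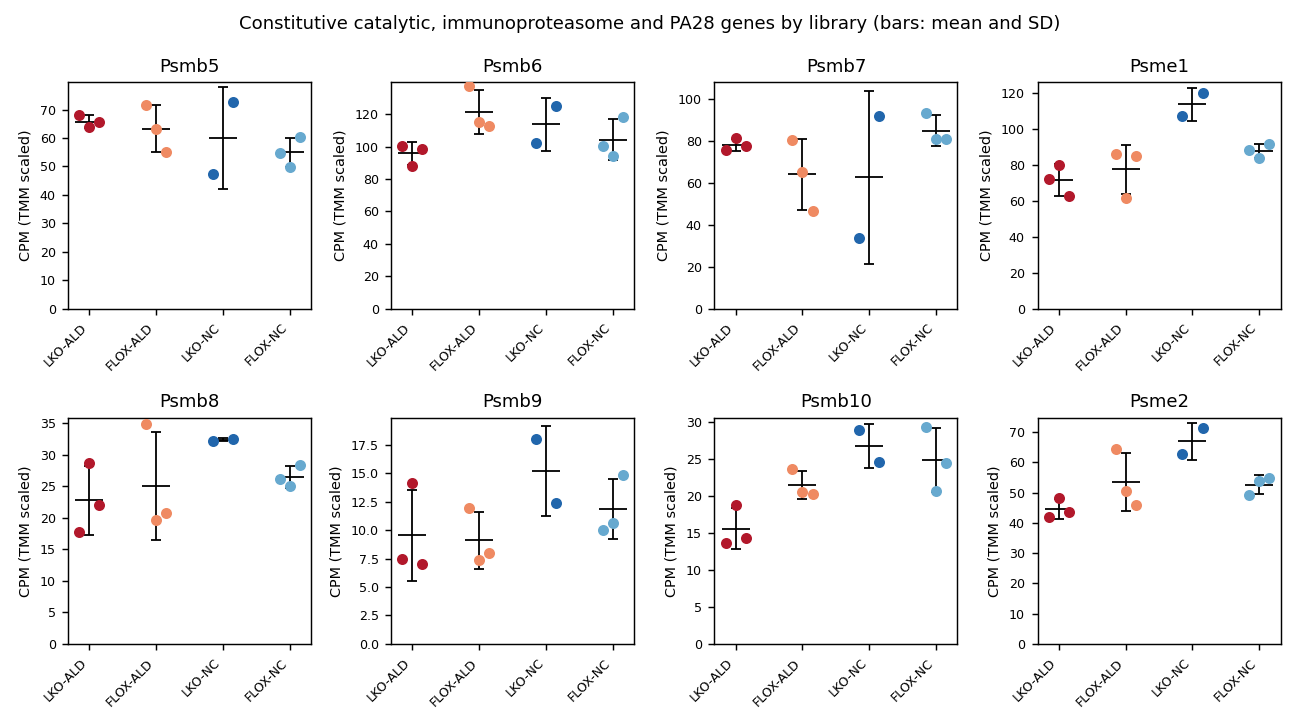
CPM of the constitutive catalytic genes Psmb5, Psmb6 and Psmb7, of Psmb8, Psmb9 and Psmb10, which take their places, and of Psme1 and Psme2, in each library of the 4 groups, with the mean and SD as bars. Psmb10, Psme1 and Psme2 are lower in the 3 LKO-ALD libraries than in both LKO-NC libraries, while the 2 LKO-NC values of Psmb7 are 33.5 and 91.7 CPM.

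Among the cap genes of the same comparison, Psmd13, a lid subunit, had the largest positive value. It had 80.02, 59.2 and 64.4 CPM in LKO-ALD, against 15.8 and 37.6 CPM in LKO-NC (log2 fold change 1.35 ± 0.43; edgeR adjusted p = 0.123; DESeq2 adjusted p = 0.0316). Psmd13 overlaps Sirt3 on the other strand of chromosome 7, whose log2 fold change was -0.48 ± 0.25. Psmd8, another lid subunit, had 102, 78.5 and 108 CPM in LKO-ALD, against 40.3 and 48.2 CPM in LKO-NC (log2 fold change 1.12 ± 0.29; edgeR adjusted p = 0.0751; DESeq2 adjusted p = 0.00968). Neither gene's libraries overlapped, and these 2 were the core or cap genes that rose by DESeq2. The leading transcript of Psmd8 took 14.6% to 47.0% of its counts by library, so its reads were spread over its 7 transcripts differently from library to library.

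The other cap genes had smaller values. The 6 ATPases, the ring that unfolds substrates, were all positive, from 0.10 for Psmc5 to 0.47 for Psmc2, with a median of 0.21; without LKO-NC replicate 1, 5 of 6 were positive with a median of 0.16. Psmd1 (-0.19 ± 0.19), a scaffold of the cap base, was the 1 cap gene with a negative value, and Psmd2, its partner scaffold, stood at 0.56 ± 0.24. The lid ran up from 0.12 for Psmd11. The chaperones Psmd10, Psmd5 and Psmd9 stood at 0.82 ± 0.32, 0.72 ± 0.24 and 0.59 ± 0.37; Psmd9 overlaps the abundant liver gene Hpd on the other strand. PA200 (Psme4) stood at 0.66 ± 0.24 and Psme3 at 0.49 ± 0.19, opposite in sign to Psme1 and Psme2.

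Within the core, the alpha ring ran from -0.11 for Psma7 to 0.69 ± 0.32 for Psma6 and the beta ring from -0.46 ± 0.26 for Psmb3 to 0.64 ± 0.33 for Psmb4. The 3 constitutive catalytic genes did not share a direction. Psmb5 had 68.0, 63.8 and 65.7 CPM in LKO-ALD, against 47.3 and 72.6 CPM in LKO-NC (log2 fold change 0.14 ± 0.22). Psmb7 had 75.4, 81.1 and 77.3 CPM, against 33.5 and 91.7 CPM (0.32 ± 0.35), so that in both genes the LKO-ALD libraries lay between the 2 controls. Psmb6 had 101, 87.9 and 98.7 CPM in LKO-ALD, against 102 and 125 CPM in LKO-NC (-0.25 ± 0.21).

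**Figure D4:**
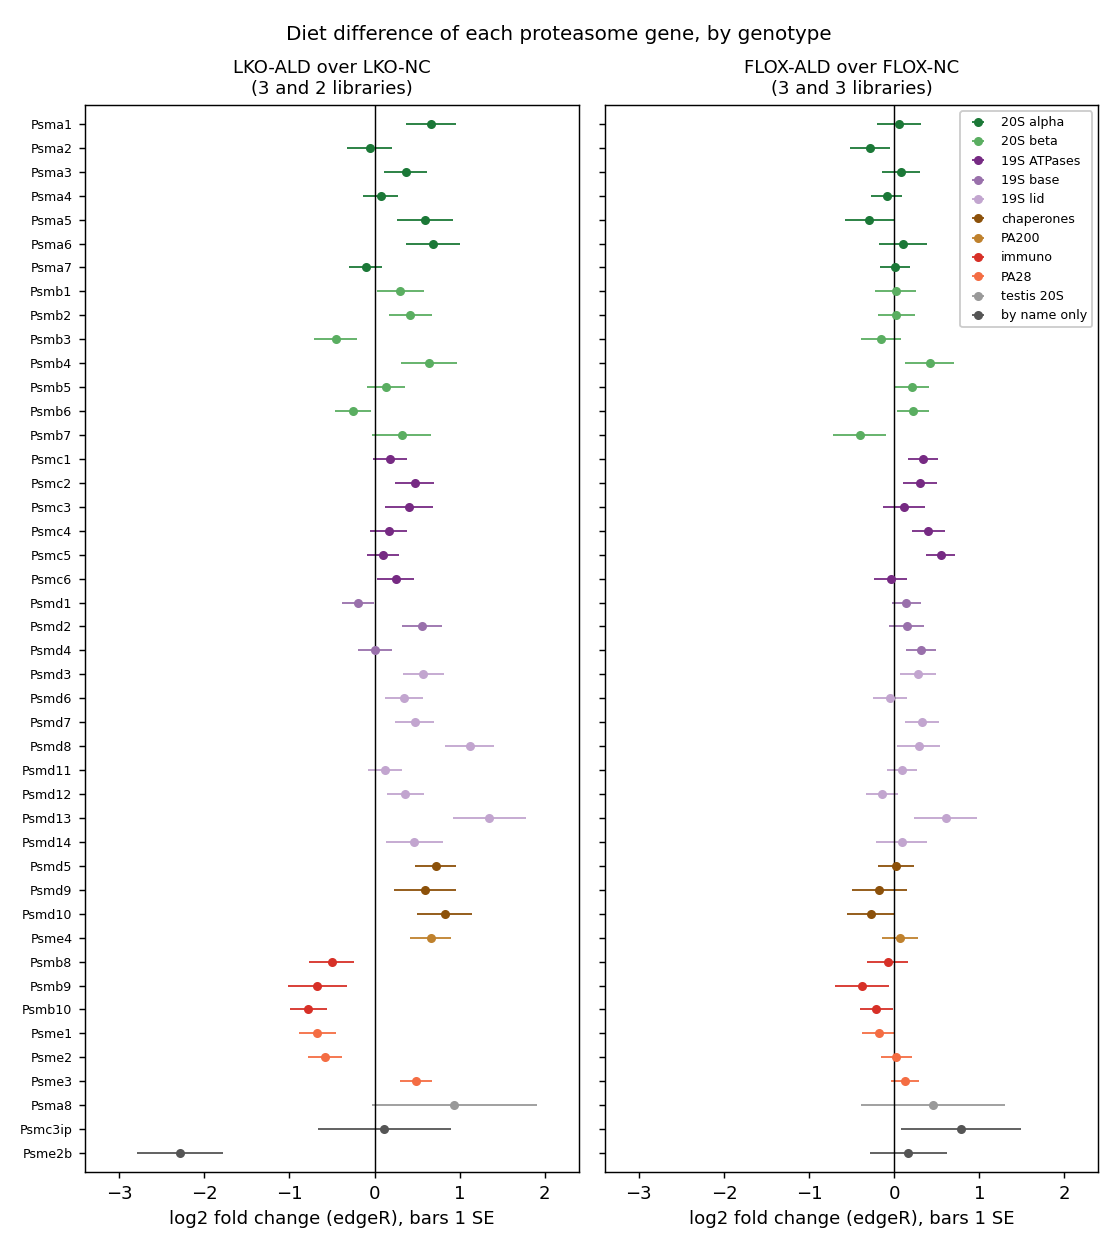
Log2 fold change on the NIAAA diet (points, bars 1 SE) of the 44 genes, for LKO-ALD over LKO-NC on the left and FLOX-ALD over FLOX-NC on the right, coloured by subcomplex. On the left the 5 genes Psmb8, Psmb9, Psmb10, Psme1 and Psme2 run from -0.78 to -0.51 against mostly positive core and cap genes; on the right the same 5 run from -0.38 to 0.03.

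The positive direction of the core rested on 1 control library, and the positive values of the cap rested on it in part. LKO-NC replicate 1 was the lowest of the 11 libraries for 24 of 44 genes, and its mean deviation from the genes' means was -0.46 for the core and -0.43 for the cap on the log2 scale, against 0.43 for the inducible 5. It is also 1 of the 2 libraries with over 25% mitochondrial counts and the one with the highest sums of macrophage, dendritic cell, monocyte and neutrophil markers; the part of these in the result was not tested. Without LKO-NC replicate 1, the core had 7 of 14 genes positive with a median of -0.02 and the cap 13 of 17 with a median of 0.16. The median of all genes was 0.05 in that run. In that case 21 of 44 genes lay above and 14 below the single LKO-NC library left, against 29.7% and 30.3% of all genes.

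**Figure D5:**
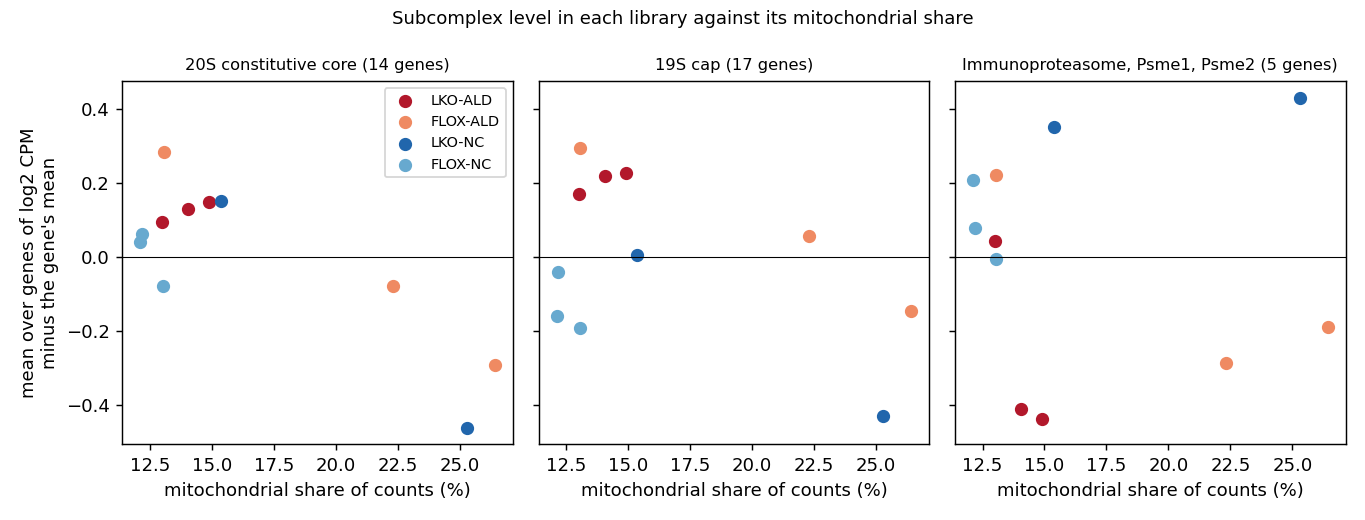
Mean over genes of log2 CPM minus the gene's mean for the core, the cap and the 5 inducible genes in each library, against the library's share of mitochondrial counts (%). LKO-NC replicate 1, at 25.3%, is lowest for the core (-0.46) and the cap (-0.43) and highest for the inducible genes (0.43), and FLOX-ALD replicate 3, at 26.4%, is next lowest for the core (-0.29).

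In floxed mice on the NIAAA diet, cap genes were mostly somewhat higher than on control feeding and the core had no common direction (FLOX-ALD over FLOX-NC). The median over the 44 genes was 0.08, with 30 positive and 14 negative, against 0.07 for all genes. By edgeR 0 of 44 were called, against 0.221% of all genes; at an unadjusted p under 0.05 there was 1 (2.27%), against 13.1%; and DESeq2 called 1, against 4.03%. In 6 genes every FLOX-ALD library lay above every FLOX-NC library (13.6%, against 9.42% of all genes) and in 1 below (2.27%, against 9.96%). Over the 44 genes, the shares called were thus below those of all genes, and the share wholly above was near that of all genes.

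The 1 gene was Psmc5, an ATPase of the cap base. It had 93.0, 76.8 and 87.0 CPM in FLOX-ALD, against 64.2, 56.0 and 55.7 CPM in FLOX-NC, with no overlap, and it rose by DESeq2 with a log2 fold change of 0.55 ± 0.17 by edgeR (edgeR adjusted p = 0.215; DESeq2 adjusted p = 0.0344). All 6 genes that lay wholly above were cap genes, 4 of them among the 6 ATPases, whose median was 0.32, and the 1 that lay wholly below was Psmb7. The cap as a whole had 14 of 17 genes positive with a median of 0.28, and the lid ran from -0.14 for Psmd12 to 0.60 ± 0.37 for Psmd13. Psmd4, a ubiquitin receptor of the cap, stood at 0.32 and Psmd1 at 0.14.

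The core had no common direction in floxed mice, with 9 of 14 positive and a median of 0.02, and with 4 of 14 positive and a median of -0.16 without FLOX-ALD replicate 1. Its ends were Psmb4 at 0.42 ± 0.29 and Psmb7 at -0.41 ± 0.31, and within the alpha ring Psma6 at 0.10 and Psma5 at -0.29. Psmb7 had 80.5, 65.0 and 46.4 CPM in FLOX-ALD, against 93.1, 80.7 and 80.7 CPM in FLOX-NC; the groups stood apart by a narrow margin, and the lowest library is the one with 26.4% mitochondrial counts. Psmb5 had 71.7, 63.1 and 55.2 CPM in FLOX-ALD, against 54.6, 49.98 and 60.2 CPM in FLOX-NC (0.21 ± 0.20), and Psmb6 had 137, 115 and 113 CPM, against 101, 94.1 and 118 CPM (0.22 ± 0.19). Both overlapped.

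Of the inducible genes in floxed mice, Psmb8 had 34.9, 19.6 and 20.7 CPM in FLOX-ALD, against 26.1, 24.97 and 28.3 CPM in FLOX-NC (-0.08 ± 0.24). Psmb9 had 11.9, 7.40 and 7.95 CPM, against 10.0, 10.6 and 14.9 CPM (-0.38 ± 0.31), and Psmb10 had 23.6, 20.5 and 20.3 CPM, against 29.3, 20.7 and 24.5 CPM (-0.21 ± 0.20). In each, FLOX-ALD replicate 1 was the highest of its group. Psme1 had 86.1, 61.7 and 85.1 CPM in FLOX-ALD, against 88.2, 83.7 and 91.7 CPM in FLOX-NC (-0.18 ± 0.19). Psme2 had 64.4, 50.6 and 45.8 CPM, against 49.2, 53.8 and 55.0 CPM (0.03 ± 0.18), and Psme3 stood at 0.13. The chaperones ran from -0.28 for Psmd10 to 0.02 for Psmd5 and Psmc6 was the lowest ATPase at -0.04. The interferon list had 14 of 16 genes negative here with a median of -0.41 and 0 called, and the macrophage markers summed to 124 to 314 CPM, against 137 to 229 CPM. The B and plasma cell markers were lower in 8 of 8, with 1 called (Ighm), and summed to 5.33 to 6.69 CPM in FLOX-ALD, against 12.9 to 19.6 CPM in FLOX-NC. The dendritic cell markers summed to 62.7 to 66.5 CPM, against 85.6 to 91.8 CPM, without overlap. The part of these cells was not tested.

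The 2 diet comparisons share no library, so their directions can be set side by side. Of the 44 genes, 25 were positive in both, 6 were negative in both and 13 differed in sign; over all genes tested, 6200 of 19014 were positive in both and 5249 negative in both. The cap had 13 of 17 positive in both and 0 negative in both, and the core 7 of 14 and 2 of 14. Psmb8, Psmb9 and Psmb10 were negative in both, but Psmb8 in floxed mice was positive without FLOX-ALD replicate 2 (0.064) or replicate 3 (0.076). Without FLOX-ALD replicate 1, the 2 FLOX-ALD libraries left lay wholly below FLOX-NC for Psmb8, Psmb9 and Psmb10. In that setting 11 of 44 genes lay wholly below, against 15.3% of all genes, and 8 wholly above, against 15.1%. The difference of the 2 diet effects was tested by the interaction term: 0 of 44 genes were called by edgeR, against 0.00526% of all genes, 5 of 44 (11.4%) had an unadjusted p under 0.05, against 9.37%, and DESeq2 called 0 of 44, against 0.505%. The interaction was positive for all 8 lid genes, from 0.03 for Psmd11 to 0.83 ± 0.38 for Psmd8, and for the 3 chaperones, up to 1.10 ± 0.42 for Psmd10. It was negative for all 5 inducible genes, from -0.61 ± 0.27 for Psme2 to -0.30 ± 0.47 for Psmb9, with Psmb10 at -0.57 ± 0.29, Psme1 at -0.49 ± 0.29 and Psmb8 at -0.43 ± 0.36. The lowest adjusted p was 0.498, so the diet effects on these genes were not shown to differ between genotypes. Without LKO-NC replicate 1, 8 of 17 cap genes and 7 of 14 core genes had a positive interaction, and 4 of the 5 inducible genes a negative one.

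On the NIAAA diet, no proteasome gene was called between the genotypes (LKO-ALD over FLOX-ALD). The median was 0.11, with 31 of 44 positive, against -0.03 for all genes. No gene was called by edgeR, among the 44 or among all genes (0%), and the lowest adjusted p among the 44 was 0.550. An unadjusted p under 0.05 was met by 4 of 44 (9.09%), against 8.05% of all genes, and DESeq2 called 0 of 44, against 0.711%. In 2 genes the LKO-ALD libraries lay wholly above (4.55%, against 6.35% of all genes), Psma5 and the chaperone Psmd10, and in 4 wholly below (9.09%, against 6.26%), Psmb6, Psmb10, Psmc5 and Psme2b, the last named after its values were seen; both shares are near those of all genes. Without FLOX-ALD replicate 1, the library with Xist at 772 CPM, 17 of 44 genes lay wholly above, against 12.8% of all genes. In that setting 5 of 44 lay wholly below, against 12.9%.

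Psmb10 had 13.7, 18.7 and 14.3 CPM in LKO-ALD, against 23.6, 20.5 and 20.3 CPM in FLOX-ALD, and its log2 fold change was -0.46 ± 0.20 (edgeR adjusted p = 0.594). Psmb6 had 101, 87.9 and 98.7 CPM, against 137, 115 and 113 CPM (-0.34 ± 0.19). Psmb8 (-0.14), Psmb9 (0.07), Psme1 (-0.12) and Psme2 (-0.26) overlapped between the genotypes, as did Psmb5 (0.05) and Psmb7 (0.28). In the same comparison 9 of 10 macrophage markers were negative with a median of -0.83, 14 of 16 interferon genes with a median of -0.31, and 8 of 8 B and plasma cell markers, which summed to 3.23 to 4.27 CPM in LKO-ALD, against 5.33 to 6.69 CPM in FLOX-ALD. None of these was called, and their part in the values of Psmb10 was not tested. All 8 lid genes were positive, from 0.08 for Psmd6 to 0.59 ± 0.25 for Psmd8, and the chaperones ran from 0.36 for Psmd5 to 0.62 ± 0.28 for Psmd10. Elsewhere the ends were Psma5 (0.58) and Psma4 (-0.08) in the alpha ring, Psmc6 (0.22) and Psmc5 (-0.27) among the ATPases, Psmd2 (0.18) and Psmd1 (-0.22) in the base, and Psme3 (0.19) in PA28.

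On control feeding, the inducible genes were higher in Cre mice in value but not by test (LKO-NC over FLOX-NC). By edgeR 0 of 44 genes were called, against 0.0105% of all genes, with a lowest adjusted p of 0.745; an unadjusted p under 0.05 was met by 1 (2.27%), against 6.52%; and DESeq2 called 0 of 44, against 0.316%. In 6 genes the LKO-NC libraries lay wholly above (13.6%, against 15.1% of all genes) and in 2 wholly below (4.55%, against 13.9%). The 5 inducible genes were all positive, from 0.11 for Psmb10 over 0.29 for Psmb8 and 0.36 for Psmb9 to 0.35 ± 0.20 for Psme2 and 0.37 ± 0.21 for Psme1; Psmb10 was at -0.014 without LKO-NC replicate 1 and at -0.0085 without FLOX-NC replicate 2. Psme1 had 108 and 120 CPM in LKO-NC, against 88.2, 83.7 and 91.7 CPM in FLOX-NC, and Psme2 had 62.6 and 71.4 CPM, against 49.2, 53.8 and 55.0 CPM; both pairs of groups stood apart. The macrophage markers summed to 234 to 433 CPM in LKO-NC, against 137 to 229 CPM in FLOX-NC, with 10 of 10 higher in value and 0 called, and their part was not tested.

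For the core on control feeding the sign turned on LKO-NC replicate 1. With it, 4 of 14 core genes were positive with a median of -0.15; without it, 13 of 14 were, with a median of 0.13. Psmb7 (-0.44 ± 0.35 with both libraries) had 33.5 and 91.7 CPM in LKO-NC, against 93.1, 80.7 and 80.7 CPM in FLOX-NC, and Psmb5 and Psmb6 both stood at 0.13 with both libraries. The ends of the other parts were Psma7 (0.11) and Psma6 (-0.36), Psmb3 (0.13), Psmc1 (0.20) and Psmc3 (-0.25), Psmd4 (0.21) and Psmd2 (-0.23), Psmd11 (0.07) and Psmd13 (-0.50), Psmd9 (-0.23) and Psmd10 (-0.47), and Psme3 (-0.17), none of them called.

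The wider pathway was read from lists of genes that work with the proteasome. Nfe2l1 itself had 98.2, 79.2 and 103 CPM in LKO-ALD, 96.4, 99.2 and 97.8 CPM in FLOX-ALD, 100.4 and 118 CPM in LKO-NC, and 102, 93.1 and 92.2 CPM in FLOX-NC, with overlap in both diet comparisons and log2 fold changes of -0.22 in Cre and 0.03 in floxed mice. The 4 genes listed as proteasome gene regulators, Nfe2l1 among them, ran from -0.48 for Nfe2l2 to 0.49 for Ngly1 in Cre mice. In floxed mice they ran from -0.58 for Nfe2l2 to 0.03 for Nfe2l1. Pomp, the chaperone that closes the core's assembly, stood at 0.34 ± 0.23 in Cre and 0.16 ± 0.20 in floxed mice, and Psmf1, an inhibitor of the core, at 0.33 ± 0.26 and -0.23 ± 0.23. On the diet in Cre mice, 8 of 8 shuttle and segregase genes, which deliver ubiquitinated proteins, were positive with a median of 0.72, as were 6 of 6 ubiquitin and activating enzyme genes with a median of 0.33, 4 of 6 cap partners, and 5 of 6 genes of core assembly and inhibition, Psmf1 included. LKO-NC replicate 1 was low for these lists too: without it 7 of 8 shuttle genes were positive with a median of 0.35, 5 of 6 ubiquitin genes with a median of 0.13, 3 of 6 cap partners with a median of -0.013, and 4 of 6 assembly and inhibitor genes with a median of 0.095. Of 9 antigen processing genes, which use the peptides the immunoproteasome makes, 4 were positive and 5 negative with a median of -0.06, and 2 were positive without that library. No gene of these lists was called by edgeR in any of the 5 comparisons. In floxed mice on the diet the shuttle list had 7 of 8 positive with a median of 0.13.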

How the data were processed

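Liver RNA of 11 libraries was analysed. A KAPA stranded kit is named for the mRNA extraction and a SMARTER kit for library preparation, per the labels' protocols. Cutadapt, FastQC, HISAT2, StringTie and edgeR and the mouse build mm10 are named in the submitters' processing notes; how reads were counted, and with which strand setting, is not given in the sources used here. The deposited gene table holds estimated counts and FPKM per gene, per the file headers. The estimated counts entered the fits as whole numbers, and no rounding step was applied here.

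Counts were filtered (filterByExpr, minimum count 10, minimum total 15), leaving 19014 genes, scaled by TMM and fitted in 1 model of 4 groups with edgeR 4.0.16 (robust quasi-likelihood, R 4.3.3), with Benjamini-Hochberg adjustment over all genes at 0.05. The fit had 7 residual degrees of freedom. Alternatives were DESeq2 1.42.0, limma 3.58.1 (voom, and log2(FPKM + 1) or log2(FPKM + 0.1)), DESeq2 size factors, nuclear genes only, no filter, only the 2 groups compared, a replicate block and leaving out each library; leaving out both libraries over 25% mitochondrial counts was chosen after seeing the data, as were the values without 1 library for the pathway lists, the ATPases and the counts of genes that do not overlap. The steps were tested on counts simulated with less spread than these libraries, whose common biological coefficient of variation was 42.2%. That check does not show the power of the tests here. No replicates agreed within sampling noise.

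The members and lists were chosen with earlier results of these data known. Named were the catalytic, immunoproteasome and PA28 alpha and beta genes, members called in any comparison, the highest and lowest fold change per subcomplex and comparison, the highest and lowest level, and Nfe2l1, Pomp, Psmf1 and Lpcat3; other genes were named after their values were seen. Promoters came from RefSeq (GRCm38.p6), searched over 250 bases before the start.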

Additional observations from a re-analysis of the deposited data

How the results depend on the processing

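Proteasome genes called by edgeR numbered 0 in all 5 comparisons. DESeq2 called 1 for the diet in floxed mice and 6 for the diet in Cre mice. Without the filter on low counts edgeR called 2 in Cre mice, Psmd8 and Psme2b, and leaving out 1 library gave 0 to 2. With a replicate block edgeR called 0 in both diet comparisons and the interaction, the 3 it was run for, since the genotypes share no title numbers; the block moved the calls over all genes from 182 to 7 in Cre mice and from 42 to 12 in floxed mice. After each gene's group mean was taken out, the deviations of same-numbered libraries correlated at -0.050 to 0.078. Only those of number 1 correlated best with their own number, and the numbers were not taken as pairs. The deviations of the 2 LKO-NC libraries mirror each other, so the check cannot decide for numbers 4 and 6. Over all genes, the Cre diet count was 6 to 473 leaving out 1 library, 1536 by DESeq2, 404 without the filter, 120 by voom, 106 on log2(FPKM + 0.1) and 23 with only the 2 groups; the floxed diet count was 2 to 146, 646 by DESeq2, 128 without the filter and 6 with 2 groups. The genotype counts were 1 to 21 (DESeq2 60) on control feeding and 0 to 6 (DESeq2 127) on the NIAAA diet, and the interaction 0 to 8 (DESeq2 79).

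Log2 fold changes that changed sign when 1 library was left out were, for the diet in floxed mice, Psmb8 (-0.39 to 0.076), Psme2 (-0.13 to 0.16), Psmd5 (-0.18 to 0.17), Psma6 (-0.036 to 0.36) and Psmc6 (-0.26 to 0.065). For the diet in Cre mice they were Psmb5 (-0.14 to 0.49), Psmb7 (-0.24 to 1.23), Psmc5 (-0.022 to 0.23) and Psmd11 (-0.090 to 0.38). For genotype on control feeding they were Psmb5 (-0.21 to 0.40), Psmb6 (-0.019 to 0.26), Psmb7 (-1.34 to 0.11), Psmb10 (-0.014 to 0.24), Psmd9 (-0.73 to 0.14), Psmd11 (-0.17 to 0.27) and Psma6 (-0.94 to 0.053). For genotype on the NIAAA diet they were Psmb5 (-0.052 to 0.16), Psmb8 (-0.34 to 0.19), Psmb9 (-0.33 to 0.32) and Psmd6 (-0.024 to 0.24), and for the interaction Psmb5 (-0.35 to 0.26), Psmb9 (-0.68 to 0.0036) and Psmd11 (-0.18 to 0.27). Without both libraries over 25% mitochondrial counts the reversed values were Psmb8 0.044 and Psmc6 0.033 in floxed mice, Psmb5 -0.14, Psmb7 -0.24, Psmc5 -0.023 and Psmd11 -0.091 in Cre mice, Psmb7 0.11, Psmb10 -0.014, Psmd9 0.14 and Psma6 0.054 on control feeding, Psmb5 -0.043, Psmb9 -0.027 and Psmd6 -0.013 on the NIAAA diet, and Psmb7 -0.017 and Psmd11 -0.15 in the interaction. On log2(FPKM + 0.1), Psmd5 in floxed mice was -0.00028. None of these genes was called by edgeR in these comparisons, and the cause was not tested.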
